A study of Mus musculus with 8 samples.

Results

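The genes described here encode the proteins of the nuclear pore and the karyopherins that carry cargo through it. They were taken by name: every gene whose symbol begins with Nup and a digit, with Kpna or Kpnb, with Ipo and a digit, or with Xpo, leaving out pseudogene symbols, of which there was 1 (Kpna2-ps). This rule gave 41 of the 55401 listed genes and used no measured value, although the set was chosen with earlier results of these data known. RNA was sequenced from AML12 cells, a hepatocyte line from the liver of a mouse carrying human TGF-alpha, in 4 control dishes and 4 dishes exposed for 1 h to Opti-ELF-WMF, a pulsed magnetic field of 100 mG at its peak with pulses of 4 ms whose rate climbed from 1 to 8 Hz over 8 s and then began again. Per the study's methods, control and exposed cells were set up side by side from 1 shared batch of cells, and control dishes were kept in a different incubator with the stimulator off, so exposure and incubator cannot be told apart. The labels only number the samples, and each sample is called a dish here. Whether the samples of a group were separate cultures is not stated. The p-values therefore measure the spread between these samples, which may be technical. The deposited unit is TPM, a unit of transcript abundance, which divides reads by transcript length and scales each dish to the same total.

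The nuclear pore is a ring of protein subcomplexes set in the nuclear envelope. A scaffold of Y complexes and an inner ring holds nucleoporins rich in phenylalanine and glycine in the central channel, and fibres extend to the cytoplasm and a basket to the nucleus. Karyopherins bind these repeats: importin alpha recognises a nuclear localisation signal and is carried in by importin beta, other importins bind cargo directly, exportins carry cargo out, and the small GTPase Ran, bound to GTP in the nucleus, releases import cargo and loads export cargo.

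Of the 41 genes, 39 reached 1 TPM in 4 or more of the 8 dishes and were tested, 20 pore proteins and 19 karyopherins. Nup62cl was listed at 0 in all 8 dishes, and Kpna7, an importin alpha known from oocytes and early embryos, was listed at 0 in all dishes but 1, where it was 0.02 TPM. Between 19386 and 20114 genes were above 0 in a dish, and at most 3.79% of values were identical between any pair of dishes. All 8 hepatocyte markers were present (summed TPM 4818 to 5034 in control and 5118 to 5360 in exposed dishes), and the fibroblast (0.56 to 1.96 and 0.64 to 1.35), endothelial (0.01 to 0.05 and 0.03 to 0.08) and macrophage lists (at most 2.34 and 1.81) were near 0, with Lum, Cdh5 and Adgre1 listed at 0 throughout. Most of the hepatocyte sum came from Krt18 (mean 1905 TPM in control and 2029 in exposed dishes) and Krt8 (2248 and 2361), while Alb (55.1 and 49.7), Ttr (358 and 348) and Apoa1 (4.54 and 3.77) had the lower mean in exposed dishes. Of the 4 cholangiocyte markers, Krt19, Krt7 and Sox9 were present and Epcam stayed at or under 0.13 TPM (summed TPM 1203 to 1291 and 1218 to 1339). Transcripts encoded by the mitochondrial genome took 8.94% ± 0.34 of TPM in control and 7.04% ± 0.76 in exposed dishes (SD, n = 4 each), and since every dish sums to the same total, a lower share of these transcripts comes with a higher share for the rest.

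Promoters are shown for Ipo5 and Nup62, the 2 members with the smallest p-values, and for Nup50 and Xpo5, chosen after the matches were seen because they hold the same palindrome as Nup62. Promoter windows of 300 bases around an annotated start were taken from RefSeq (GRCm38.p6), where 35 windows of 30 tested members were found. They were searched on both strands for the CCAAT box, the GC box GGGCGG bound by Sp1-type factors, the 10-base palindrome bound by NRF-1, and the E2F-type motifs TTTCCCGC and TTTGGCGC. Capitals below mark every match in either orientation, so a CCAAT box can read ATTGG and a GC box CCGCCC, and no 2 matches overlapped in the 4 windows printed. The first window, chr7:44815838-44816137 on the plus strand, spans the start of Nup62. The second, chr14:120910944-120911243 (plus), belongs to the first annotated start of Ipo5, the third, chr15:84923178-84923477 (plus), to Nup50 and the fourth, chr17:46202561-46202860 (plus), to Xpo5.
Nup62: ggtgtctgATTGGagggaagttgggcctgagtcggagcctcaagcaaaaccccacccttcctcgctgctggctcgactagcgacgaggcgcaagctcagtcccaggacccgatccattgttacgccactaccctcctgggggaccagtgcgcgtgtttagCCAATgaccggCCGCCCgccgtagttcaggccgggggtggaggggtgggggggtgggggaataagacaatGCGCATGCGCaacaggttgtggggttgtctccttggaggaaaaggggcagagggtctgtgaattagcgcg
Ipo5: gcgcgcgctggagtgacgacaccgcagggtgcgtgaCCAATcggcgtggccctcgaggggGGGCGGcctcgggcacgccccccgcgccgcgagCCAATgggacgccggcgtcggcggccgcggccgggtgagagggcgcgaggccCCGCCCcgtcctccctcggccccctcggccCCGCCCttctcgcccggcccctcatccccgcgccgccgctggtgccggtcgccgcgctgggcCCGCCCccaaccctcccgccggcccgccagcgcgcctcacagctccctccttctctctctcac
Nup50: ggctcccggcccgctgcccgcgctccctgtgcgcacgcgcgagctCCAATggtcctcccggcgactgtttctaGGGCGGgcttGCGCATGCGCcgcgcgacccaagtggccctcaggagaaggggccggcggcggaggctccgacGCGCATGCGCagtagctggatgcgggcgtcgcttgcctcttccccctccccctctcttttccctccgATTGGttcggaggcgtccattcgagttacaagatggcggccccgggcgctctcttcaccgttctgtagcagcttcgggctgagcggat
Xpo5: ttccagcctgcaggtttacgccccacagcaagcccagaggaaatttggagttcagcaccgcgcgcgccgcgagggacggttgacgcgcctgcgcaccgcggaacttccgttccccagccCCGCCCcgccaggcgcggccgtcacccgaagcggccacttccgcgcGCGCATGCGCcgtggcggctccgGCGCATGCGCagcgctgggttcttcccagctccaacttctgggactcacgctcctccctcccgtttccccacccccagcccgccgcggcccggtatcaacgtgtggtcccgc

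The NRF-1 palindrome, the longest run of capitals, stood in the windows of Nup62, Nup50, Xpo5 and Nup107, which is 11.4% of the 35 member windows against 0.971% of all 32851 windows of the same length. It was absent from the windows of Ipo5, Nup93 and Kpna2, which had smaller p-values than Nup50 and Xpo5, and a second Ipo5 window at chr14:120915597-120915896 held none of the searched motifs. The palindrome occurred once in Nup62 and in Nup107 and at 2 places each in Nup50 and Xpo5. Nup107, whose window is not printed, differed by 0.013 in log2(TPM + 1), exposed minus control (limma, unadjusted p = 0.811). CCAAT was in 54.3% of member windows against 37.4% of all, and GGGCGG in 68.6% against 35.7%. TTTCCCGC was found in 1 member window, that of Nup210 (1.07% of all windows), and TTTGGCGC in none (0.514% of all). The 32851 windows belong to 27025 genes, many of them not tested here, and shares over tested genes alone were not computed. Whether the shares above are particular to the members was therefore not tested. A match of letters describes the window and does not show that a factor was bound there.

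TPM is corrected for length, so levels can be set in order across members. Kpna2 (321 TPM, mean of 8 dishes) and Kpnb1 (312) stood at the top and overlapped between dishes, so these transcripts were listed at nearly the same level. With its near-identical copies added (described below), Kpna2 was at 403 TPM in control and 419 TPM in exposed dishes, against 304 and 320 TPM for Kpnb1. Ipo5 (181 TPM) and Ipo7 (174), which carry ribosomal proteins and histones among other cargo, came next and also overlapped each other, followed by Xpo1 (119), the main exportin for nuclear export signals, and Ipo9 (101). The most abundant pore proteins were Nup62 (94.6 TPM) and Nup85 (93.9). In all, 6 members had a mean over 100 TPM, 31 lay between 10 and 100, and 2 lay lower, Nup210 (9.20) and Nup210l (1.18), the membrane glycoprotein of the pore and its relative. Of the 38 neighbouring pairs in this order, 8 stood apart in all 8 dishes and 30 overlapped. The spread between dishes was small: the median coefficient of variation over tested members was 3.21% in control and 4.74% in exposed dishes, and the highest were 14.8% for Nup210 in control and 19.2% for Nup133 in exposed dishes.

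**Figure D1:**
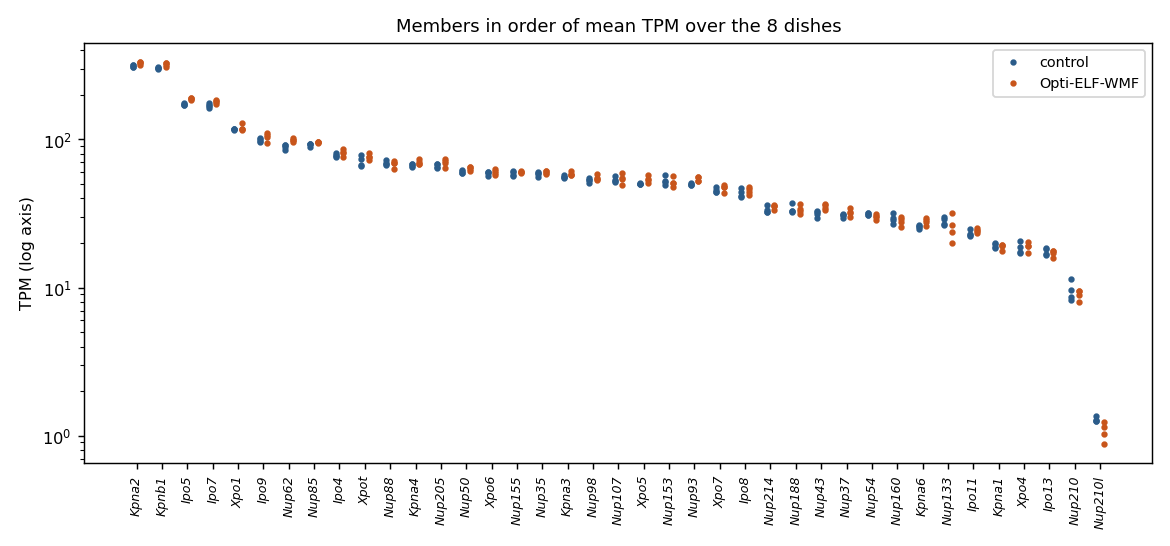
Levels of the 39 tested members in each dish, in TPM on a log axis, ordered by their mean over the 8 dishes. Each point is 1 dish, control in blue and exposed in orange. Kpna2 and Kpnb1 lay between 297.5 and 334.5 TPM in every dish, and Nup210l lay lowest at about 1 TPM.

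Importin alpha 1, encoded by Kpna2, made up 65.1% ± 0.57 of the summed TPM of the importin alpha genes in control and 65.2% ± 0.88 in exposed dishes (SD, n = 4 each). Kpna4 followed with 13.9% in both groups, Kpna3 with 11.7% and 11.6%, Kpna6 with 5.34% and 5.53%, and Kpna1 with 4.00% and 3.76%. Each of these shares overlapped between the groups, so the makeup of the importin alpha pool did not separate control from exposed dishes. The shares leave out TPM listed under near-identical copies of Kpna2, described below. Among these copies is Gm10259 (82.6 and 82.8 TPM), and adding them would raise the share of Kpna2 and lower the others.

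The comparison of exposed with control dishes asks which transcripts differ after 1 h of the field. No member passed an adjusted p of 0.05 in limma with Benjamini-Hochberg adjustment over the 12122 tested genes, and neither did any other gene (0.00%). The lowest adjusted p among members was 0.122. At an unadjusted p under 0.05, 10 of 39 members (25.6%) were called, all with the higher mean in exposed dishes, against 12.0% of all tested genes called higher and 3.65% called lower. The count was 5 without control replicate 2 and 7 to 14 without any other 1 dish. Under these omissions, 8.8% to 13.4% of all tested genes were called higher and 2.7% to 4.2% lower. Among the 20 pore proteins 4 were called, and among the 19 karyopherins 6. The difference on the log2(TPM + 1) scale was above 0 for 29 members and below 0 for 10, where 63.7% of all tested genes were above 0. The median difference was 0.056 over members and 0.026 over all tested genes. By group, 12 of 20 pore proteins and 17 of 19 karyopherins were above 0. Under each of the 3 scalings described next, 11 of 20 pore proteins were, with 17, 17 and 16 of 19 karyopherins. The share of all tested genes above 0 was then 49.1%, 49.2% and 47%.

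The scaling of the tables bears on these counts. Of all genes with an unadjusted p under 0.05, 76.6% were higher in exposed dishes with TPM as deposited, but 50% were higher after rescaling without mitochondria-encoded genes, 47.1% with median-of-ratios scaling and 42.3% with upper-quartile scaling. Members called higher numbered 4, 5 and 4 of 39 under these scalings in place of 10, and 1 member, Nup54, was then called lower. Of all tested genes, 5.7%, 5.6% and 4.9% were called higher under the same scalings, and 5.7%, 6.2% and 6.6% lower. The median over members was 0.027, 0.027 and 0.023, beside medians over all tested genes of -0.0016, -0.0013 and -0.0053. Ipo5, Nup62, Nup93 and Nup43 kept an unadjusted p under 0.05 and the higher mean in exposed dishes under each of the 19 alternative settings. Their adjusted p ran from 0.0955 to 0.356 over these settings (limma). They are the members with the smallest p, and every setting reused the same dishes, so this is no independent support.

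**Figure D2:**
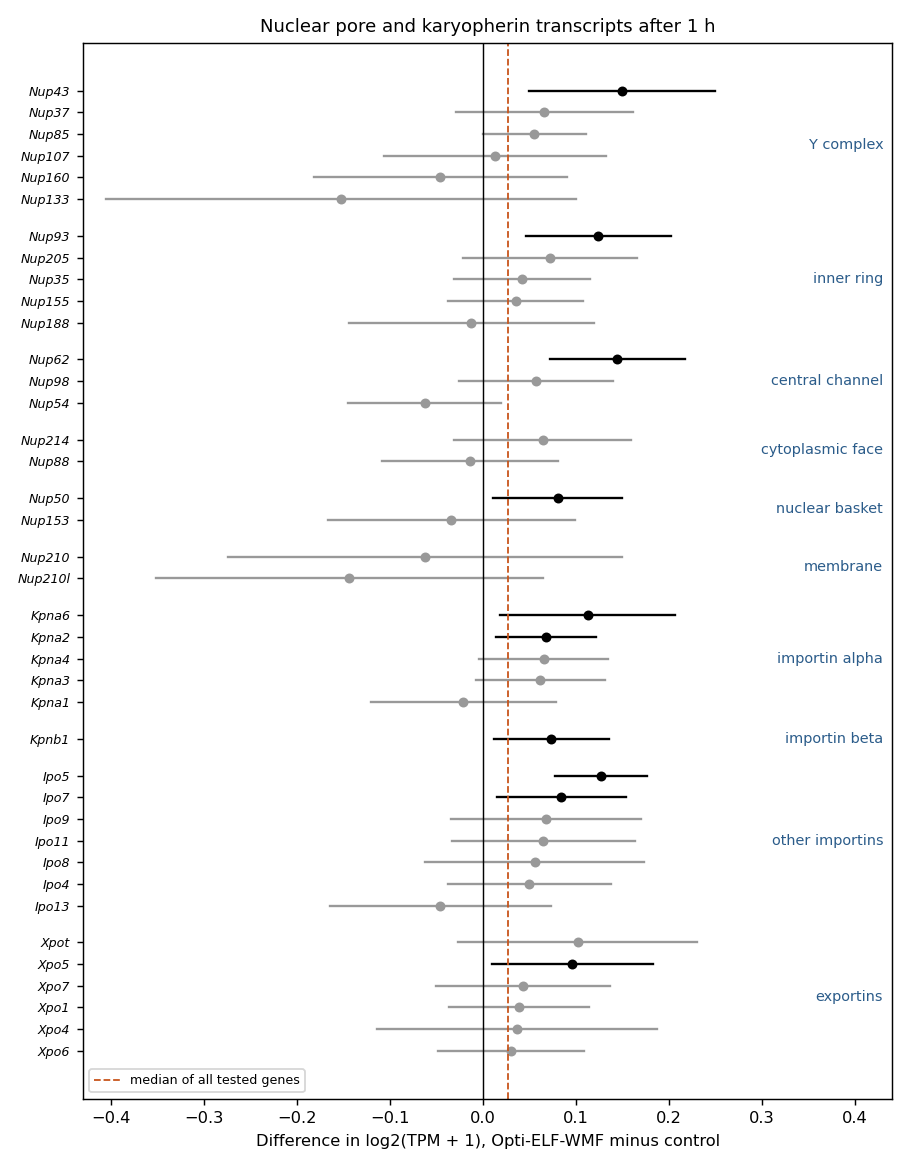
Difference in log2(TPM + 1), exposed minus control, of the 39 tested members by role, with limma's 95% intervals. Black marks the 10 members with an unadjusted p under 0.05, grey the others, and the dashed line is the median of all tested genes (0.026). The black points all lie to the right of 0, and the widest interval is that of Nup133.

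**Figure D3:**
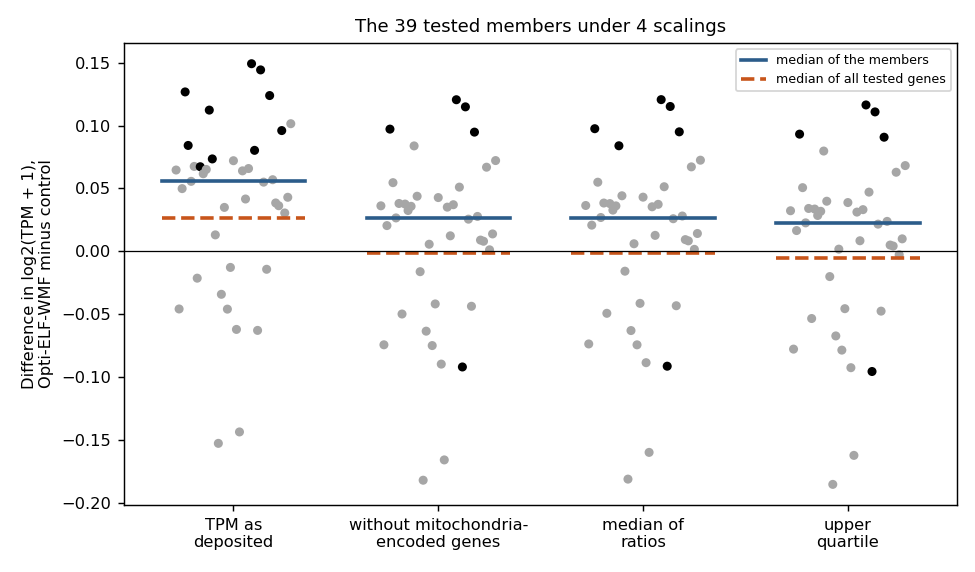
Difference in log2(TPM + 1), exposed minus control, of the same 39 members (points, placed in alphabetical order) under 4 scalings, with the median over members (solid) and over all tested genes (dashed). Black points have an unadjusted p under 0.05. The median over all tested genes moves from 0.026 to about 0 and that over members from 0.056 to between 0.023 and 0.027.

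In the Y complex, the outer scaffold, Nup43 had the smallest p. Control dishes had 31.3, 32.6, 32.9 and 29.6 TPM and exposed dishes 33.6, 36.8, 35.8 and 34.3 TPM. Every exposed dish lay above every control dish, and the mean was 31.6 ± 1.5 against 35.1 ± 1.47 TPM (SD, n = 4 each), a log2 difference of 0.15 ± 0.044 (SE; limma, adjusted p = 0.167). Groups with no overlap and the exposed dishes higher were seen for 6 members (15.4%) and for 8.01% of all tested genes. Nup85, the most abundant of this complex, was another: 89.2 to 93.3 TPM in control and 94.9 to 96.3 TPM in exposed dishes, a log2 difference of 0.055 ± 0.025 (adjusted p = 0.326 by limma). Nup133, which holds neighbouring Y complexes together, went the other way in its mean but not in every dish. Its control dishes had 27.1, 26.4, 29.7 and 29.0 TPM, while exposed dishes ranged from 20.1 in replicate 1 through 23.6 and 26.3 to 31.7 in replicate 2. The log2 difference was -0.15 ± 0.11 (limma, adjusted p = 0.564), and only without exposed replicate 2 did Nup133 have an unadjusted p under 0.05. Nup160 (29.0 ± 2.06 and 28.1 ± 1.87 TPM), Nup107 (53.7 ± 2.18 and 54.3 ± 4.04, a log2 difference of 0.013 that was below 0 under all 3 rescalings) and Nup37 (30.6 ± 0.82 and 32.1 ± 1.65) overlapped between groups.

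In the inner ring, Nup93, which anchors the FG nucleoporins of the channel, had 48.9, 50.8, 50.1 and 48.9 TPM in control and 52.3, 56.1, 52.4 and 56.2 TPM in exposed dishes. The groups did not overlap, and the log2 difference was 0.12 ± 0.035 (limma, adjusted p = 0.153). Its large scaffold partners did not separate the groups: Nup205 was at 66.4 ± 1.82 and 69.9 ± 3.82 TPM, and Nup188 at 33.9 ± 2.26 and 33.6 ± 2.33 TPM. Nup155 (59.0 ± 2.27 and 60.5 ± 0.62 TPM) and Nup35 (58.3 ± 1.99 and 60.1 ± 1.25 TPM) overlapped as well.

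In the central channel, Nup62 and its partner Nup54 differed in opposite directions in their means. Nup62, the FG protein at the centre of the channel, had 85.2, 92.2, 89.5 and 92.4 TPM in control dishes and 96.9, 101.9, 99.8 and 99.0 TPM in exposed dishes. All exposed dishes exceeded all control dishes, with a mean of 89.9 ± 3.34 against 99.4 ± 2.07 TPM, 10.6% higher, and a log2 difference of 0.14 ± 0.032 (95% interval 0.072 to 0.22; limma, adjusted p = 0.122). Nup54, which forms a coiled-coil complex with Nup62, had 31.1, 32.0, 31.9 and 30.8 TPM in control and 30.2, 30.4, 31.3 and 28.4 TPM in exposed dishes. Its mean was lower in exposed dishes (a difference of -4.36%), with overlap in 1 dish (log2 difference -0.063 ± 0.037; limma, adjusted p = 0.457). Nup98, whose transcript also encodes Nup96, was at 53.1 ± 1.56 and 55.3 ± 2.25 TPM.

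A ratio of 2 genes within a dish does not depend on how the dish was scaled. The ratio of Nup62 to Nup54 was 2.74, 2.89, 2.81 and 3.00 in control dishes and 3.21, 3.36, 3.19 and 3.48 in exposed dishes. These ranges did not overlap, and the mean was 2.86 ± 0.11 against 3.31 ± 0.14 (SD, n = 4 each), 15.7% higher. The pair was chosen after the values were seen and its ratio was not tested. Of 12 ratios computed between pairs of members, the other 11 overlapped, among them Nup62 to Nup98 (1.69 ± 0.053 and 1.80 ± 0.061), Ipo5 to Ipo7 (1.02 ± 0.028 and 1.05 ± 0.017) and Kpnb1 to Kpna2 (0.97 ± 0.012 and 0.98 ± 0.043).

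**Figure D4:**
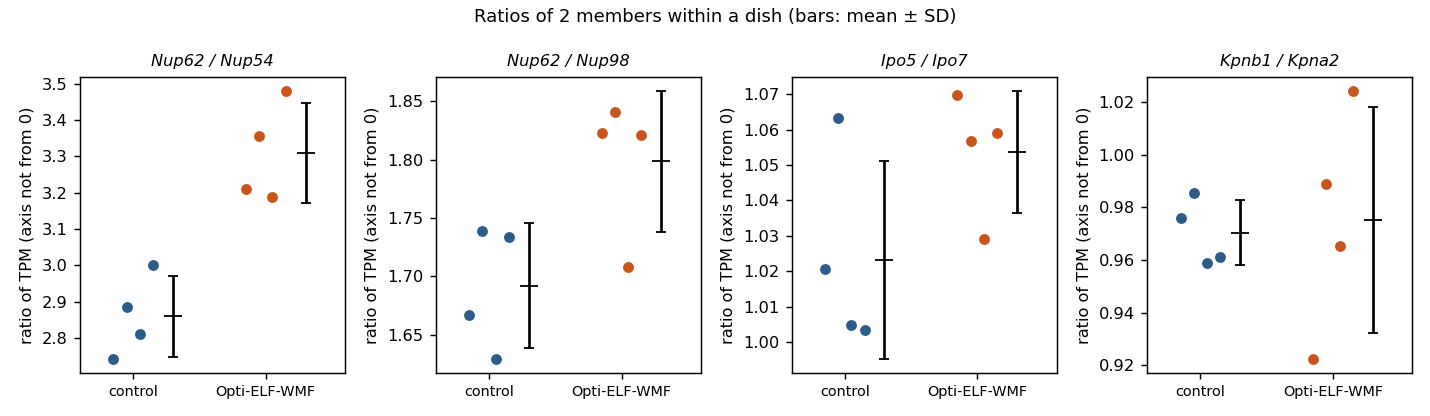
Ratios of the TPM of 2 members within each dish, with the mean ± SD of 4 dishes at the side; points stand in replicate order. Nup62 to Nup54 lay between 2.74 and 3.00 in control and between 3.19 and 3.48 in exposed dishes, and the other 3 ratios shown overlapped.

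At the cytoplasmic face, Nup88 (69.1 ± 2.12 and 68.5 ± 3.73 TPM) and Nup214 (33.6 ± 1.62 and 35.1 ± 1.24 TPM), which bind each other and take part in export, did not separate the groups. In the nuclear basket, Nup50, a cofactor that helps importin alpha let go of its cargo, had 60.9, 59.0, 61.8 and 59.3 TPM in control and 63.3, 64.9, 61.4 and 65.5 TPM in exposed dishes. Exposed replicate 3 fell within the control range, and the log2 difference was 0.080 ± 0.031 (limma, adjusted p = 0.249). Nup153, the basket's FG protein, was at 52.6 ± 3.55 and 51.4 ± 3.67 TPM. In the membrane, Nup210l was the 1 member whose exposed dishes all lay below the control dishes (1.86% of all tested genes did so): 1.25 to 1.35 TPM in control and 0.88, 1.14, 1.03 and 1.23 TPM in exposed dishes. At this level the log2 difference of -0.14 ± 0.093 (limma, adjusted p = 0.503) is held down by the pseudocount of 1, and Nup210 had 9.44 ± 1.40 and 8.96 ± 0.71 TPM.

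Among import receptors, Ipo5 had the smallest p of all members and ranked 16 of the 12122 tested genes. Control dishes had 172, 172, 176 and 172 TPM and exposed dishes 186, 191, 191 and 188 TPM. Every exposed dish lay above every control dish, by more than the range within either group, and the mean was 173 ± 2.19 against 189 ± 2.46 TPM, 9.24% higher, with a log2 difference of 0.13 ± 0.022 (95% interval 0.078 to 0.18; limma, adjusted p = 0.122). Ipo7 had 168, 162, 175 and 171 TPM in control and 174, 181, 185 and 178 TPM in exposed dishes, overlapping in 1 dish (log2 difference 0.084 ± 0.031; limma, adjusted p = 0.230). The remaining importins overlapped: Ipo9 (98.8 ± 2.41 and 103.7 ± 6.78 TPM), Ipo4 (78.2 ± 1.95 and 81.1 ± 4.14), Ipo8 (43.3 ± 2.72 and 45.0 ± 2.44), Ipo11 (23.2 ± 1.07 and 24.3 ± 0.89) and Ipo13 (17.6 ± 0.94 and 17.0 ± 0.91).

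Kpnb1, importin beta, had 309, 305, 298 and 306 TPM in control and 307, 331, 317 and 326 TPM in exposed dishes, with exposed replicate 1 inside the control range (log2 difference 0.074 ± 0.028; limma, adjusted p = 0.239). Kpna2 had 317, 309, 310 and 318 TPM in control and 333, 335, 329 and 318 TPM in exposed dishes. Here exposed replicate 4 (318.18) lay just under the highest control dish (318.32), and the log2 difference was 0.067 ± 0.024 (adjusted p = 0.221 by limma). Kpna4, with 65.4 to 68.5 TPM in control and 68.5 to 73.3 TPM in exposed dishes, did not overlap, though the nearest dishes stood at 68.46 and 68.50 TPM (log2 difference 0.065 ± 0.031; limma, adjusted p = 0.352). Kpna6 was at 25.7 ± 0.61 and 27.9 ± 1.38 TPM (log2 difference 0.11 ± 0.042; limma, adjusted p = 0.238), Kpna3 at 56.1 ± 1.25 and 58.6 ± 1.67 TPM, and Kpna1 at 19.2 ± 0.66 and 19.0 ± 0.82 TPM.

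**Figure D5:**
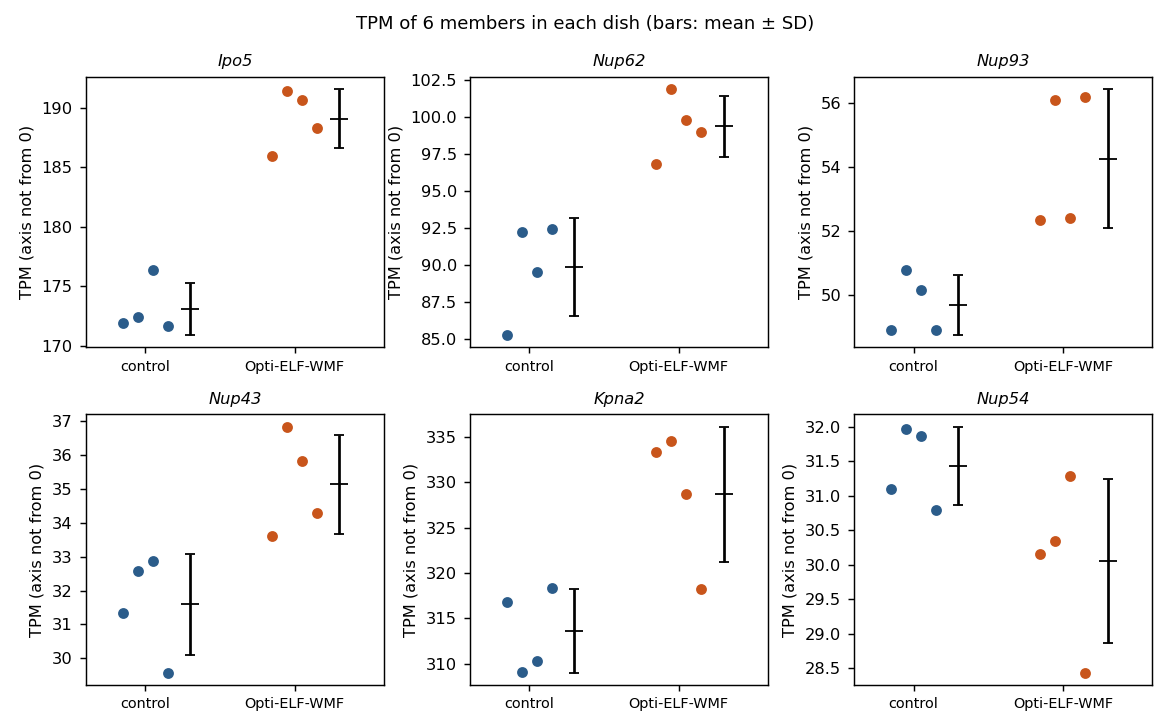
TPM of 6 members in each dish, in replicate order, with the mean ± SD of 4 dishes at the side; the axes do not start at 0. Ipo5, Nup62, Nup93 and Nup43 show no overlap between groups, Kpna2 overlaps in 1 dish, and Nup54 has its lower mean in exposed dishes.

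The values of Kpna2 and Nup35 could share reads with near-identical copies. The coding sequence of Kpna2 (1590 bases) and the processed pseudogene Gm10259 (chr3:25211016-25212605, minus strand, GRCm38), listed at 82.6 ± 2.76 and 82.8 ± 2.05 TPM, are 99.8% identical and differ at 3 positions, C90T, A696G and C741T, counted from 1 at the first base of the start codon, the member's base first and the copy's last. Between these positions a read fits both places. The stretches around position 90 (copy at chr3:25212486-25212546) and position 696 (copy at chr3:25211880-25211940) are printed with the differing base in capitals.
Kpna2, around position 90: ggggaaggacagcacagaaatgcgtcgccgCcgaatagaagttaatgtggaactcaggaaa
Gm10259, around position 90: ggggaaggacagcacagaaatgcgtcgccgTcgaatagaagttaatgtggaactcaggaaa
Kpna2, around position 696: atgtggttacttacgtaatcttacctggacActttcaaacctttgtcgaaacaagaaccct
Gm10259, around position 696: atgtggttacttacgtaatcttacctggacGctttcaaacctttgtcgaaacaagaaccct

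Another near-identical copy of Kpna2 is the gene Gm10184 (99.9% over 1968 bases), listed at 6.5 TPM in control and 7.6 TPM in exposed dishes. Adding all its copies to Kpna2 gave 403.0 ± 5.79 and 419.4 ± 7.15 TPM (log2 difference 0.057 ± 0.022; limma, adjusted p = 0.249). Nup35 and the gene Gm4353 (chr7:116082863-116084635, 23.6 ± 1.68 and 24.3 ± 2.79 TPM) differ over the 978 coding bases by 1 substitution, A390G. Their sum was 81.9 ± 2.04 and 84.3 ± 3.60 TPM. Ipo4 shares 55.3% of its exonic bases with the same-strand gene model Gm49378, listed at a mean of 0.90 TPM. The value of Ipo4 may include or lose reads of that model. Nup62 shares 82 exonic bases (2.9%) with Atf5 on the opposite strand, listed at a mean of 138.66 TPM. It shares 97 (3.4%) with Il4i1 on the same strand (0.86 TPM). Whether reads were shared at these places was not tested.

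All 6 exportins taken by the naming rule had a log2 difference above 0, as did 63.7% of all tested genes. Transport receptors with other symbols are among the transport partners described below. With upper-quartile scaling 5 of 6 did, with Xpo6 at -0.0027, and so did 47% of all tested genes. Where 12.0% of all tested genes were called higher at an unadjusted p under 0.05, 1 exportin was. That was Xpo5, the exporter of microRNA precursors, with 50.4, 50.01, 51.0 and 50.4 TPM in control and 50.8, 57.8, 53.6 and 54.0 TPM in exposed dishes. Exposed replicate 1 lay inside the control range, and the log2 difference was 0.096 ± 0.039 (limma, adjusted p = 0.268). Xpo1 had 116.7 to 118.2 TPM in control dishes and 118.5, 118.5, 129.1 and 116.5 TPM in exposed dishes, so its higher mean rests on replicate 3 (log2 difference 0.038 ± 0.034; limma, adjusted p = 0.636). Xpot, the tRNA exporter, was at 71.3 ± 5.86 and 76.5 ± 3.63 TPM. Xpo7, Xpo6 and Xpo4 differed by 0.043, 0.031 and 0.036 on the log2 scale and overlapped between groups. The median over all tested genes was 0.026.

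Summed over the 41 members, TPM was 2664 to 2711 in control and 2717 to 2870 in exposed dishes, 4.45% higher in the mean and without overlap. The karyopherins alone gave 1752 ± 16.2 and 1842 ± 42.6 TPM, also without overlap, and the pore proteins 933.0 ± 13.7 and 962.4 ± 22.8 TPM, with overlap. Beside these sums stand the lower mitochondrial shares given above. After rescaling without mitochondria-encoded genes both the sum over all members (2918 to 2993 and 2921 to 3071) and that over karyopherins (1897 to 1943 and 1920 to 2015) overlapped. With median-of-ratios scaling neither did (2697 to 2726 against 2744 to 2809, and 1754 to 1778 against 1804 to 1844). With upper-quartile scaling the karyopherins did not overlap (1765 to 1777 against 1795 to 1846) and all members did (2704 to 2739 and 2731 to 2812).

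The highest and lowest values were unevenly spread over the dishes. Exposed replicate 2, which had the lowest mitochondrial share (5.99%), held the highest value of 15 of the 39 members, and of 5 after median-of-ratios scaling. Exposed replicate 3 held the highest value of 9 members, and of 10 after that scaling. The lowest value lay in exposed replicate 1 for 11 members and in control replicate 2 for another 11, and after the scaling for 11 and 7. The part of library composition in these differences was not tested.

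Genes that work with the pore but carry other names were taken from a list of 31 transport partners, of which 30 were tested and Ranbp17 was listed at 0. The list was chosen with earlier results of these data known, so its counts are a description and the list was not tested. An unadjusted p under 0.05 was found for 16 of 30, all with the higher mean in exposed dishes (12.0% of all tested genes), 12 of them without overlap (8.01% of all tested genes), and the median difference was 0.073. After the 3 rescalings 7, 7 and 5 were called, again all higher, where 5.7%, 5.6% and 4.9% of all tested genes were called higher. Ran itself was at 425.0 ± 9.15 and 464.5 ± 28.7 TPM (log2 difference 0.13 ± 0.041; limma, adjusted p = 0.189), without overlap. Ranbp1, a cofactor of GTP hydrolysis on Ran, was at 276.9 ± 12.0 and 301.0 ± 6.46 TPM (adjusted p = 0.149 by limma), and Ddx19a, a helicase of mRNA export, at 75.9 ± 2.19 and 82.7 ± 2.29 TPM (adjusted p = 0.136 by limma). By role, 6 of 9 further pore proteins, 5 of 7 genes of the Ran cycle, 2 of 6 receptors and 3 of 8 mRNA export genes were called. The lowest differences belonged to the importin relative Ranbp6 (10.4 ± 0.42 and 9.91 ± 0.33 TPM) and to Rangrf (13.9 ± 1.39 and 13.3 ± 1.21 TPM), both overlapping.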

How the data were processed

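RNA from AML12 cells was prepared by the authors with a stranded mRNA kit and sequenced on an Illumina NovaSeq. The authors deposited a table of TPM for each dish, with 55401 genes in each. Submitters' processing notes name Trimmomatic 0.39, STAR 2.7.4a, RSEM 1.3.3 and the build mm10; the annotation and the strand setting are not given in the sources used here. TPM keeps no depth, so depth is unknown and no counting interval is given.

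Genes with TPM of at least 1 in at least 4 dishes were tested (12122) on log2(TPM + 1), which understates differences of low genes, with limma 3.58.1 (lmFit, eBayes with a trend) in R 4.3.3 and Benjamini-Hochberg adjustment; the code was checked on simulated data. Groups came from the sample labels. Positions are those of GENCODE M21 (GRCm38), matched for 55141 identifiers, and promoters those of RefSeq. Near-identical copies were found with BLAST 2.17.0 (at least 95% identity over at least 80% of the copy). Members and lists were chosen with earlier results of these data known. Named genes are the 10 members with the smallest p in each direction, the most abundant of each role, every importin alpha, Kpnb1, Xpo1, Ran, and the 2 partners with the smallest p in each direction. Alternatives covered the pseudocount, filter, scaling, trend, replicate block, length and GC content, copies, and leaving out each dish. Same-numbered dishes did not deviate together (correlation -0.042 to 0.026), so the numbers were not used as pairs.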

Additional observations from a re-analysis of the deposited data

Results flagged for a closer look

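Among 64 groups of 4 dishes examined, 6 held a dish far from the other 3 by Dixon's test at the 95% level, where chance flags about 1 in 20. Control replicate 3 was that dish in 5 of them. It had 176.3 TPM of Ipo5 (the others 171.6 to 172.4), 37.2 TPM of Nup188 (32.5 to 33.1), 58.0 TPM of Kpna3 (55.3 to 55.6), 16 TPM of Rangrf (13.1 to 13.4) and, on the low side, 89.2 TPM of Nup85 (92.6 to 93.3). Exposed replicate 3 had 129.1 TPM of Xpo1, where the other exposed dishes had 116.5 to 118.5.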

How the results depend on the processing

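No member passed an adjusted p of 0.05 (limma) under any alternative. The 10 members with an unadjusted p under 0.05 became 5 after rescaling without mitochondria-encoded genes, 6 with median-of-ratios and 5 with upper-quartile scaling, and the 16 transport partners became 7, 7 and 5. The shares of all tested genes called under these scalings are given above. The members' median of 0.056 became 0.027, 0.027 and 0.023. Over all genes, the 0 adjusted calls became 1 with TPM of at least 1 in all 8 dishes, with median-of-ratios, with upper-quartile scaling and with limma without a trend. Leaving out 1 dish gave 0 to 2 adjusted calls over all genes (2 without control replicate 2), 5 members (without control replicate 2) to 14 (without exposed replicate 1), 13 to 16 partners and a members' median of 0.043 to 0.071. Differences close to 0 changed sign without 1 dish, with ranges over the 8 omissions of -0.12 to 0.021 for Nup210, -0.079 to 0.0093 for Nup153, -0.039 to 0.023 for Nup88 (0.0062 without control replicate 3), -0.055 to 0.032 for Nup188 and -0.105 to 0.0067 for Rangrf, all without control replicate 3, and -0.039 to 0.0085 for Kpna1, without exposed replicate 1. Nup88 (0.023) and Nup188 (0.021) turned without exposed replicate 1 too, and Nup153 also without exposed replicate 2 (0.0015). Nup107 (0.013) had the same sign in only 12 of 19 alternatives: it was -0.016, -0.016 and -0.020 under the 3 scalings, -0.016 with the block and median-of-ratios scaling, -0.00095 with the length and GC correction, -0.0020 without control replicate 1 and -0.028 without exposed replicate 4. The cause was not tested.

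With the replicate number as a block, 9 members and 15 partners had an unadjusted p under 0.05 and 0 passed adjustment (lowest adjusted p = 0.214, limma). With this block, 11.8% of all tested genes were called higher and 3.8% lower. None of the 4 same-numbered pairs correlated over 0.1 (mean -0.013), so the numbers do not show a pairing. The block with median-of-ratios scaling, chosen after seeing the data like the length and GC correction and the summing of copies, gave 6 members, 6 partners and a median of 0.027. In that setting 5.8% of all tested genes were called higher and 6% lower. The length and GC correction and the summing of copies changed neither count by over 1.5 times (12 and 10 members). With these, 12.2% and 12% of all tested genes were called higher, and 3.8% and 3.7% lower. TPM holds no depth, so the counting error of a member cannot be separated from the spread between dishes.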

Other observations

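Some pore proteins are listed under older symbols and so lay outside the naming rule. Nupl1, the older symbol of Nup58, which joins Nup62 and Nup54 in the channel complex, was listed at 0 to 0.05 TPM in the 8 dishes. The gene model Gm49336 (chr14:60205282-60251507, minus strand, GRCm38) shares 1756 exonic bases with it, 48.8% of the exonic bases of Nupl1, and was listed at 61.1 ± 1.74 TPM in control and 63.0 ± 1.81 TPM in exposed dishes (SD, n = 4 each, overlapping). How the reads of this place were divided between the overlapping models cannot be read from TPM, so the value listed for Nupl1 is uncertain. Nupl2, the older symbol of Nup42, a cytoplasmic-face protein of mRNA export, was at 13.0 ± 0.31 and 12.6 ± 0.94 TPM, overlapping between groups.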
